A study of Mus musculus with 12 samples.

Results

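Gluconeogenesis is the making of glucose from lactate, glycerol and amino acids, which the liver does in the fasted state. Pyruvate carboxylase and phosphoenolpyruvate carboxykinase (PEPCK) bypass pyruvate kinase, fructose-1,6-bisphosphatase bypasses phosphofructokinase, and glucose-6-phosphatase releases free glucose. Glucagon acts through its receptor, cAMP and the CREB-CRTC2 complex to raise transcription of the genes for PEPCK and glucose-6-phosphatase, and insulin opposes this largely by excluding FoxO1 from the nucleus. The genes described here are 10 of the 15140 genes in the deposited count table, chosen by symbol: the enzyme genes Pcx, Pck1, Fbp1 and G6pc, the glucose-6-phosphate transporter gene Slc37a4, the glycerol channel gene Aqp9, the glucagon receptor gene Gcgr, and the regulator genes Crtc2, Ppargc1a and Creb3l3. All 10 were measured in every library and passed the filter on low counts.

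Liver RNA of male mice was sequenced after polyA selection, with 6 libraries of Phb1adipo-/- mice, in which prohibitin 1 is deleted in adipocytes (KO), and 6 libraries of wild-type mice (WT). All mice of both genotypes were 7 to 8 weeks old when a high-fat diet (60 kcal% fat) began and ate it for 3 months, and no group on another diet was analysed here. The sources used here do not give the Cre driver of the deletion, the breeding of the wild-type mice, the feeding state or the hour of sacrifice. Since no label ties a library to an animal, the spread behind each p-value is that among these libraries, and it may be technical.

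Total counts ran from 34121087 to 37973022 per library in KO and from 30348123 to 40828767 in WT. Phb, the prohibitin 1 gene, stood at 88.6 to 100.4 CPM (read counts scaled to library size) in KO livers and 80.0 to 91.2 CPM in WT livers, and since the deletion was directed to adipocytes this checks no label. Hepatocyte markers (7 of 8 measured, none called) summed to 71760 to 96720 CPM in KO and 69160 to 99610 CPM in WT. Macrophage markers (8 of 8 measured, 3 called lower) summed to 113 to 238 CPM in KO and 229 to 353 CPM in WT. Of the adipocyte markers, Cfd alone was measured. In bulk liver, fewer cells of a type and less RNA per cell cannot be told apart.

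Promoter windows of 300 bases, from 250 before to 50 after a RefSeq transcription start (GRCm38.p6), matched 9 of the 10 genes. Those of Pck1 (chr2:173152823-173153122, plus strand), G6pc (chr11:101367466-101367765, plus strand) and Ppargc1a (chr5:51567676-51567975, minus strand) are shown because these genes are textbook targets of the cAMP pathway and had the widest ranges across the libraries. Capitals mark the core of the cAMP response element, TGACG on either strand, and the octamer TTACGTNA on either strand, which was chosen after the sequences were seen.
Pck1: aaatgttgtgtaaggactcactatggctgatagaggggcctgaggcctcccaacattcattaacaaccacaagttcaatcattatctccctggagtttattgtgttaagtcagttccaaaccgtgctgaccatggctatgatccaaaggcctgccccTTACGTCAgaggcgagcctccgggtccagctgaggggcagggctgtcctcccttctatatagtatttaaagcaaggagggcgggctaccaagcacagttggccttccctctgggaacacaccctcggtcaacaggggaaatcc
G6pc: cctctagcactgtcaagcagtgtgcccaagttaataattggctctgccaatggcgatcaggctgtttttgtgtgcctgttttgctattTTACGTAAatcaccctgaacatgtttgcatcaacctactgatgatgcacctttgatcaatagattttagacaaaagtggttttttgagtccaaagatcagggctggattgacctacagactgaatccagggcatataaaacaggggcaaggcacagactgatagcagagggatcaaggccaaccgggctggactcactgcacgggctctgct
Ppargc1a: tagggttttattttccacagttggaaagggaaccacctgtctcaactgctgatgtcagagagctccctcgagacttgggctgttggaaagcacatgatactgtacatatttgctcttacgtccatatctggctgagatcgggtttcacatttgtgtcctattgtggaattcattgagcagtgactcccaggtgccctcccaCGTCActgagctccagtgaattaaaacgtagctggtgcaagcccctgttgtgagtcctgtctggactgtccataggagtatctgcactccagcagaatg
The Pck1 window holds TTACGTCA, starting 93 bases before the start site, whose last 5 bases are also the core on the other strand. The G6pc window holds the octamer TTACGTAA, starting 162 bases before the start site, and no TGACG core. The Ppargc1a window holds the TGACG core 49 bases before the start site. The octamer occurs in 0.898% and the core in 20.8% of 32851 such windows. Of the 9 genes, 4 had the core in some window (Pck1, Slc37a4, Ppargc1a and Creb3l3), 2 the octamer, and 0 the full palindrome TGACGTCA, which 1.79% of windows hold. The 9 genes have 14 windows, so these counts per gene are not like the shares per window. The HNF1 motif GTTAAT, searched on both strands and present in 7.10% of windows, was in the Pck1 and G6pc windows. The TATA box letters TATAAA on either strand, present in 13.6% of windows, began 29 bases before the G6pc start and were in 1 of the 3 Slc37a4 windows. The FoxO letters GTAAACA, present in 3.65% of windows, were in none. No other form of FoxO site was searched, nor any base farther than 250 before a start. Their absence therefore does not show that these genes lack FoxO sites.

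The comparison of KO with WT asks whether liver glucose-production genes differed between the genotypes on this diet. None of the 10 genes passed the edgeR quasi-likelihood test with Benjamini-Hochberg adjustment over all 15000 genes tested, against 396 genes or 2.64% overall (1.15% higher in KO and 1.49% lower). By log2 fold change, 4 members were higher in KO and 6 lower (3 and 7 on total counts, where Slc37a4 changed sign), where 50.6% of all genes were higher. The members' median was -0.04 against 0.00 for all genes. The largest differences belonged to G6pc and Pck1, both higher in KO without passing. Unadjusted p was under 0.05 for 2 of the 10 (G6pc and Creb3l3), against 21.2% of all genes, and DESeq2 called 1, G6pc, against 8.02% of the genes it tested. The groups did not overlap for 0 of the 10, against 2.53% of all genes.

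**Figure D1:**
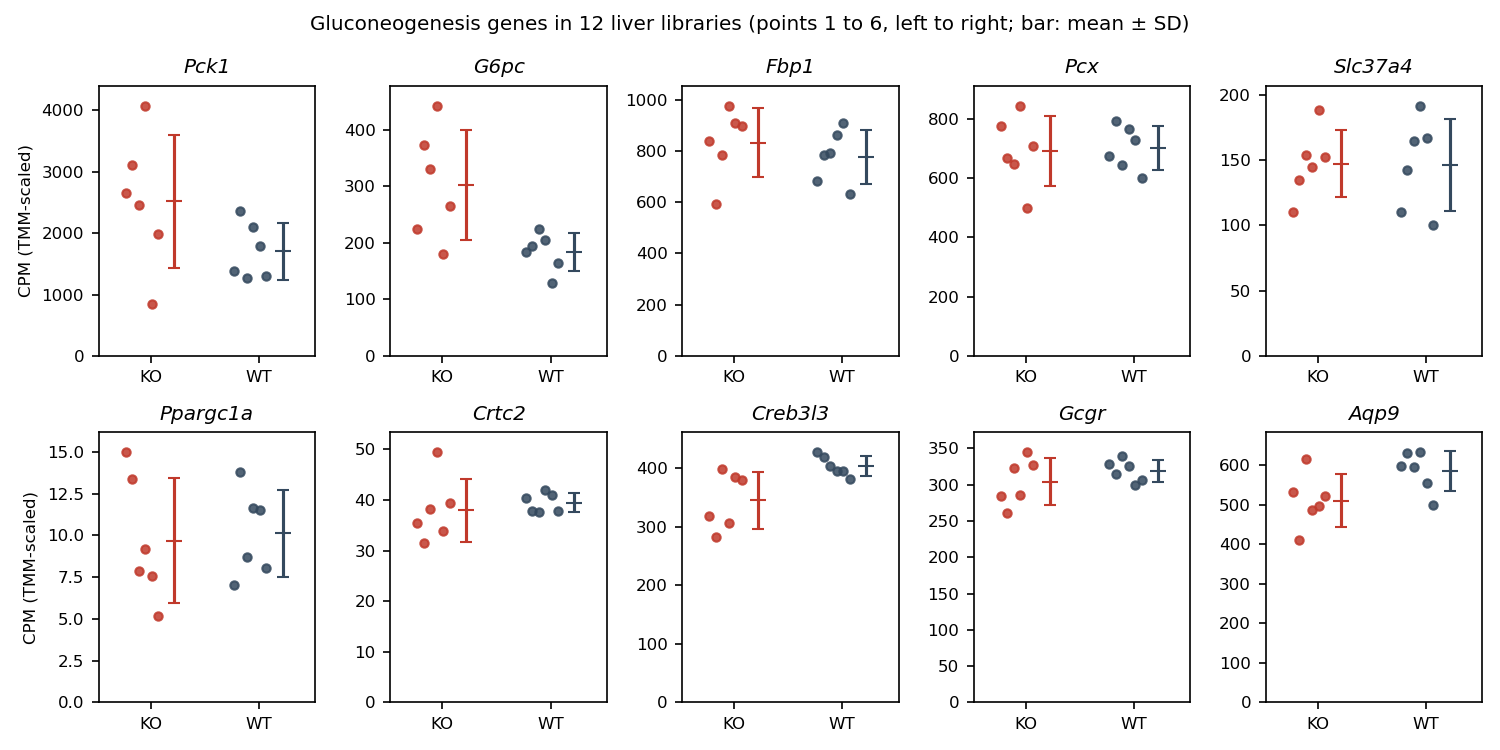
Level of each of the 10 genes (CPM scaled by TMM, each axis starting at 0) in KO libraries 1 to 6 (red, left) and WT libraries 1 to 6 (dark, right), with mean ± SD beside the points. For G6pc, 5 of 6 KO libraries lie above all WT libraries, while for every gene the ranges of the groups overlap.

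G6pc (ENSMUSG00000078650, chromosome 11, 101367561 to 101377903, GRCm38) encodes the catalytic subunit of glucose-6-phosphatase, which makes the last step of gluconeogenesis. Its level was 225, 373, 330.0, 442, 180 and 265 CPM in KO libraries 1 to 6, against 184, 195, 224, 205, 129 and 165 CPM in WT libraries 1 to 6. Only KO library 5 lay within the WT range, and WT libraries 5 and 6 lay below all KO libraries. KO livers averaged 303 ± 97.7 CPM and WT livers 184 ± 33.5 CPM (SD over 6 libraries each), a 1.65-fold difference. The log2 fold change was 0.72 ± 0.20 (SE; approximate 95% interval 0.27 to 1.17), with an edgeR Benjamini-Hochberg adjusted p of 0.0750, which does not pass 0.05. DESeq2 gave an adjusted p of 0.0113 for the same counts, and the authors' deposited table gives a log2 fold change of 0.73 with an adjusted p of 0.0330, in which 5.58% of genes are under 0.05. Without KO library 5 the edgeR adjusted p was 0.0384 (log2 fold change 0.82), and it ran from 0.0678 to 0.149 without each of the other libraries in turn.

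Slc37a4 (ENSMUSG00000032114, chromosome 9, 44396852 to 44402968) encodes the transporter that brings glucose-6-phosphate into the endoplasmic reticulum, where G6pc acts on it. It ran from 110 through a median of 149 to 189 CPM in KO livers, and from 101 through 154 to 192 CPM in WT livers. The KO range lay wholly inside the WT range, and the log2 fold change was 0.01 ± 0.16 (SE; interval -0.35 to 0.37; edgeR adjusted p = 0.978). The quotient of G6pc over Slc37a4 CPM in the same library, computed after the values were seen and not tested, ran from 0.953 through a median of 2.09 to 3.06 in KO and from 0.769 through 1.36 to 1.67 in WT, with 5 of 6 KO libraries above all WT libraries. G6pc alone had the same 5 of 6, so the quotient adds no separation. Other quotients that were computed had fewer KO libraries above all WT libraries, with 4 for Pck1 over Pcx. G6pc3, the ubiquitous paralogue of G6pc, differed by -0.03 on the log2 scale (edgeR adjusted p = 0.901).

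Pck1 (ENSMUSG00000027513, chromosome 2, 173153048 to 173159273) encodes cytosolic PEPCK, which turns oxaloacetate into phosphoenolpyruvate. Its level was 2662, 3107, 2458, 4073, 852 and 1980 CPM in KO libraries 1 to 6, against 1384, 2354, 1271, 2106, 1798 and 1298 CPM in WT libraries 1 to 6. KO libraries 1 to 4 lay above all WT libraries and KO library 5 below all of them, so KO held both ends of the 4.78-fold range. KO livers averaged 2522 ± 1082 CPM and WT livers 1702 ± 458 CPM (SD over 6 libraries each). The log2 fold change of 0.57 ± 0.30 (SE; interval -0.10 to 1.24) did not pass (edgeR adjusted p = 0.300), nor did DESeq2 (adjusted p = 0.207) or the authors' deposited table (adjusted p = 0.166). Leaving out KO library 4 lowered the log2 fold change to 0.37, and leaving out KO library 5 raised it to 0.73 (edgeR adjusted p = 0.496 and 0.0877). Pck2, the mitochondrial PEPCK gene, averaged 5.04 CPM in KO and 5.18 CPM in WT.

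Pcx (ENSMUSG00000024892, chromosome 19, 4510472 to 4621752) encodes pyruvate carboxylase, which makes oxaloacetate from pyruvate in mitochondria. It ran from 500.1 through 688 to 842 CPM in KO and from 600.2 through 701 to 791 CPM in WT, and the fold change of 0.986 had an interval of 0.824 to 1.18 (edgeR adjusted p = 0.941). KO library 5 was the lowest and KO library 4 the highest of all 12. Fbp1 (ENSMUSG00000069805, chromosome 13, 62864753 to 62888282), the liver fructose-1,6-bisphosphatase gene, ran from 593 through 868 to 976 CPM in KO and from 634 through 787 to 908 CPM in WT. Its fold change was 1.07 with an interval of 0.888 to 1.30 (edgeR adjusted p = 0.681). Neither interval left out 1.

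Aqp9 (ENSMUSG00000032204, chromosome 9, 71110659 to 71168682) encodes the channel by which glycerol from fat enters hepatocytes. It ran from 411 through 508 to 614 CPM in KO and from 499 through 597 to 631 CPM in WT, with 3 KO libraries below all WT libraries and 2 WT libraries above all KO libraries. The log2 fold change was -0.20 ± 0.09 (SE; interval -0.41 to 0.01; edgeR adjusted p = 0.249). Gcgr (ENSMUSG00000025127, chromosome 11, 120530699 to 120538986), the gene of the glucagon receptor, ran from 260 through 304 to 344 CPM in KO and from 299 through 320 to 340 CPM in WT. Its log2 fold change was -0.07 ± 0.08 (SE; edgeR adjusted p = 0.645), and KO libraries 1, 2 and 4 were below all WT libraries.

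Creb3l3 (ENSMUSG00000035041, chromosome 10, 81084324 to 81098874) encodes CREBH, a membrane-bound transcription factor of the liver that is activated in fasting. Its level was 318, 283, 399, 307, 385 and 381 CPM in KO libraries 1 to 6, against 427, 419, 405, 396, 396 and 382 CPM in WT libraries 1 to 6. KO libraries 1, 2 and 4 were far below every WT library, and 6 lay just below the lowest. The log2 fold change was -0.23 ± 0.09 (SE; interval -0.43 to -0.03), unadjusted p was 0.0248 and the edgeR adjusted p was 0.172, so it did not pass. Crtc2 (ENSMUSG00000027936, chromosome 3, 90254163 to 90264125), the glucagon-responsive coactivator of CREB, ran from 31.6 through 36.8 to 49.4 CPM in KO and from 37.6 through 39.1 to 41.9 CPM in WT, with a log2 fold change of -0.06 ± 0.09 (SE; edgeR adjusted p = 0.778). Ppargc1a (ENSMUSG00000029167, chromosome 5, 51454250 to 51567726), which encodes the coactivator PGC-1 alpha, ran from 5.16 through 8.52 to 14.96 CPM in KO and from 7.03 through 10.1 to 13.8 CPM in WT. Its log2 fold change was -0.06 ± 0.25 (SE), and the interval of -0.61 to 0.48 was the widest after that of Pck1 (edgeR adjusted p = 0.911). No exon of the 10 genes overlaps an exon of another gene in GENCODE M21.

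**Figure D2:**
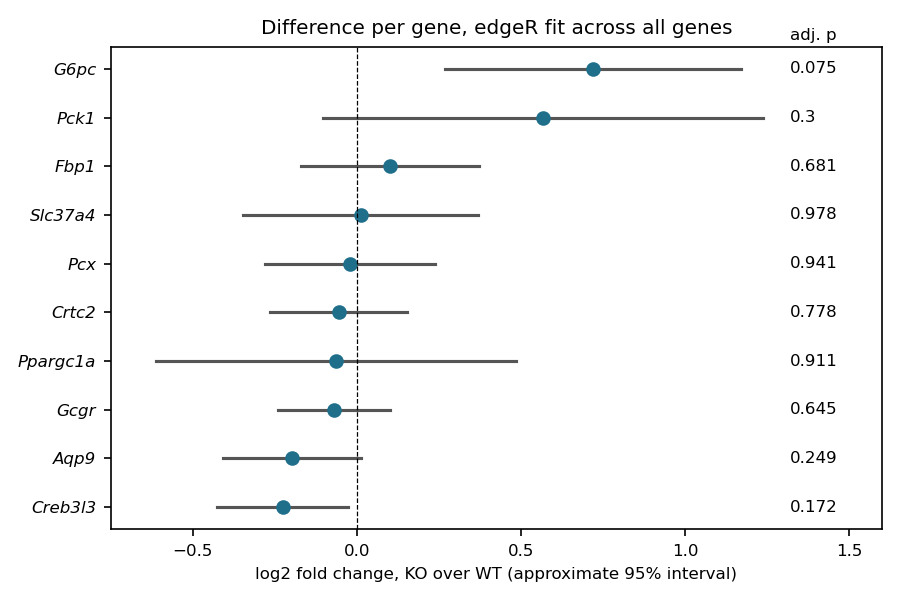
Log2 fold change of KO over WT for the 10 genes, ordered by size, with approximate 95% intervals and edgeR adjusted p at the right. G6pc (0.72) and Creb3l3 (-0.23) have intervals that leave out 0, and no adjusted p is under 0.05.

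Per kilobase of exon, the level over the 12 libraries ran in the order Pck1 (mean 616, range 248 to 1188 CPM per kilobase), Fbp1 (473, range 348 to 573), Pcx (146), Aqp9 (132), Creb3l3 (124), Gcgr (119), G6pc (101, range 53.3 to 183), Slc37a4 (51.4, range 35.2 to 67.1), Crtc2 (9.45) and Ppargc1a (1.5). Ranges did not overlap between Fbp1 and Pcx, Slc37a4 and Crtc2, or Crtc2 and Ppargc1a. All the other neighbours overlapped, so that the order from Pcx to Slc37a4, and that of Pck1 and Fbp1, is not fixed by every library. G6pc averaged 125 ± 40.5 CPM per kilobase in KO livers and 76.2 ± 13.9 in WT livers (SD over 6 libraries each).

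The genes also differed in how much they varied between libraries of one genotype. The coefficient of variation of CPM over 6 libraries was 42.9% in KO and 26.9% in WT for Pck1, 32.3% in KO and 18.2% in WT for G6pc, and 38.7% in KO and 25.6% in WT for Ppargc1a. For Crtc2 it was 16.5% in KO and 4.83% in WT, and for Creb3l3 14.1% in KO and 4.10% in WT. It was larger in KO for 9 of the 10 genes, all but Slc37a4, against 60.0% of all genes tested. The median over the 10 genes was 16.8% in KO and 12% in WT, and over all genes 17.0% in KO and 14.6% in WT. These differences in spread were not tested. KO library 4 held the highest level of 5 genes (Pck1, G6pc, Fbp1, Pcx and Crtc2), and KO library 2 the lowest of 5 (Fbp1, Crtc2, Creb3l3, Gcgr and Aqp9). KO library 5 was lowest for Pck1 and Pcx and highest for Gcgr.

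Pairs of the 10 genes were correlated on log2 CPM across the 12 libraries, 45 pairs in all, with permutation tests. After Benjamini-Hochberg adjustment 3 pairs passed by Pearson's r and 0 by Spearman's rho. By r, 0 passed once 2 libraries were left out for each pair. Those were the 2 farthest from the median of the first-named gene, so they differed between pairs. Pck1 and Pcx had r = 0.80 (permutation p = 0.00191, adjusted 0.0286) and rho = 0.69 (permutation p = 0.0171, adjusted 0.154). Without KO libraries 4 and 5, which hold the ends of the Pck1 range, the r was 0.51 (permutation p = 0.136). The size of the pooled r thus depends in part on those libraries. Within genotypes r was 0.89 in KO and 0.96 in WT (exact permutation p = 0.0264 and 0.00694, unadjusted, n = 6 each), and the WT value does not involve them. Pck1 and G6pc had r = 0.71 (permutation p = 0.0106, adjusted 0.0957) and rho = 0.76 (permutation p = 0.00642, adjusted 0.0963), and r = 0.60 without KO libraries 4 and 5 (permutation p = 0.0670). Within KO the r of Pck1 and G6pc was 0.86, and within WT it was -0.03 (exact permutation p = 0.0181 and 0.950, unadjusted, n = 6 each), a difference between genotypes that was not tested. The other passing pairs joined Creb3l3 with Gcgr and with Aqp9. For Creb3l3, KO libraries 1, 2 and 4 form a separate low cluster, so no coefficient is given, either pooled or within KO. Within WT, where that cluster is absent, r was 0.46 with Gcgr and 0.67 with Aqp9 (exact permutation p = 0.363 and 0.149, n = 6).

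**Figure D3:**
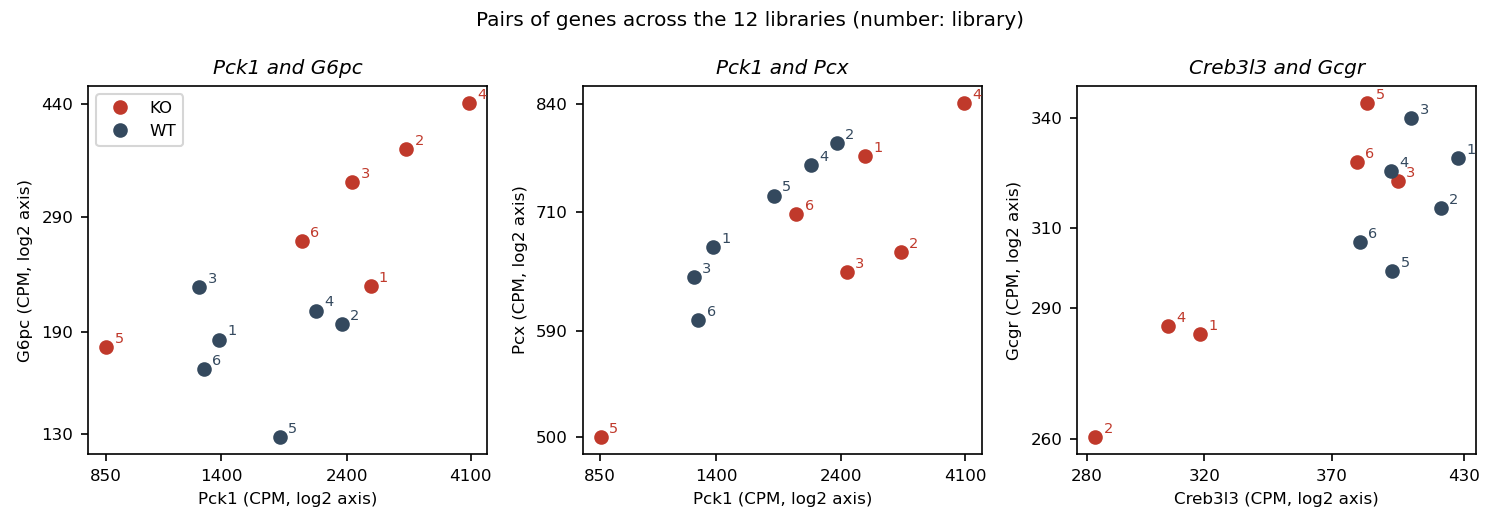
CPM of Pck1 against G6pc, Pck1 against Pcx, and Creb3l3 against Gcgr (log2 axes), 1 point per library, KO in red and WT dark, with the library number beside it. KO library 5 sits at the low end of Pck1 and KO library 4 at the high end, and KO libraries 1, 2 and 4 stand apart at low Creb3l3 and Gcgr.

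Among 12871 other genes averaging 1 CPM or more, those closest to a member in log2 CPM centred on its mean were ranked by root-mean-square distance over the 12 libraries. For Pck1, whose own root-mean-square deviation was 0.61 (log2), they were Wsb1 at a distance of 0.24, Slc39a5 at 0.29 and Limk1 at 0.32. For G6pc, with a deviation of 0.49, they were Zfp119b, Zfp438 and Rccd1, each at 0.30. For Ppargc1a, with a deviation of 0.44, they included Ermp1 at 0.21 and Zfp704 at 0.23. None of these 8 genes passed the edgeR test (adjusted p from 0.115 for Limk1 to 0.987 for Ermp1). Rccd1 overlaps Prc1 on the other strand, so its reads are uncertain.

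**Figure D4:**
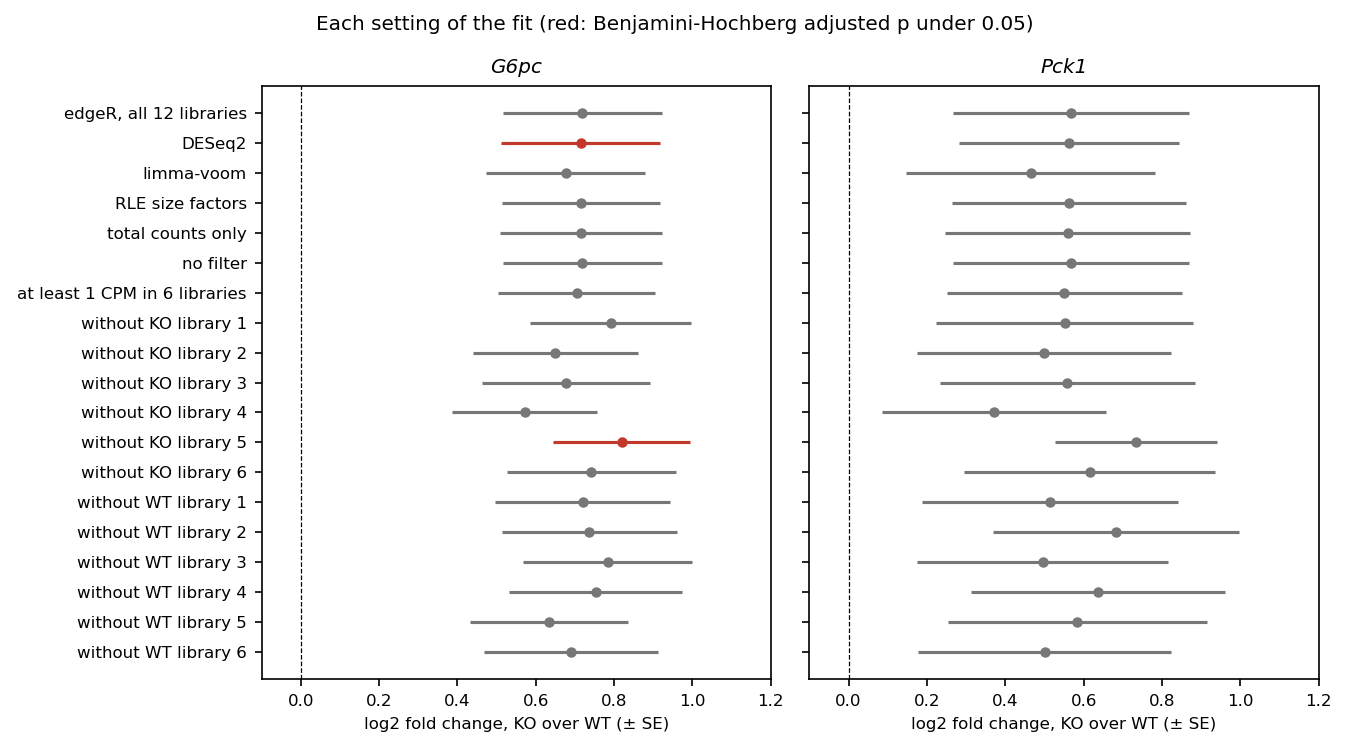
Log2 fold change of G6pc (left) and Pck1 (right), KO over WT, with SE, under each test, scaling and filter and without each library; red marks an adjusted p under 0.05. G6pc stays between 0.57 and 0.82 and turns red with DESeq2 and without KO library 5, and Pck1 stays between 0.37 and 0.73 with no red point.

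The rest of the pathway was described by 10 lists that hold 114 genes other than the members, of which 112 were tested. In all 10 of them (8.93%, against 2.64% of all genes) were called, 6 higher and 4 lower, and these lists were chosen with earlier results known, so the share is no independent evidence. The number called was 30 with DESeq2 (1214 of all genes it tested, 8.02%) and 5 on total counts (257 of all genes). On total counts Mdh2, Gapdh, Got1, Insr and Foxo1 lost their calls (edgeR adjusted p from 0.0602 for Got1 to 0.110 for Mdh2). Leaving out KO library 2 gave 5 calls, KO library 5 gave 4 and KO library 6 gave 2. Over all genes these fits gave 235, 280 and 86 calls, against 396 with all libraries. Leaving out WT library 2 gave 2 calls, WT library 3 gave 4, WT library 4 gave 0, WT library 5 gave 3 and WT library 6 gave 22. The calls over all genes were 46, 313, 25, 89 and 700 in the same order.

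Among genes that supply substrate, 2 of 16 rose and 0 fell (median log2 fold change 0.23). Tat, tyrosine aminotransferase, a classical glucocorticoid- and glucagon-induced gene, ran from 999 to 1483 CPM in KO and from 496 to 948 CPM in WT, with all 6 KO libraries above all WT libraries (log2 0.80 ± 0.14 SE; edgeR adjusted p = 0.0176). Got1, the cytosolic aspartate aminotransferase gene, ran from 144 to 354 CPM in KO and from 57.7 to 119 CPM in WT, and all 6 KO libraries were higher here too (log2 0.99 ± 0.23 SE; edgeR adjusted p = 0.0420). Sds, which encodes serine dehydratase, stood at 0.89 ± 0.27 and the lactate transporter gene Slc16a1 at 0.49 ± 0.14 (log2, SE), neither passing (edgeR adjusted p = 0.0950 and 0.0780). Reads of Sds are uncertain, since its exons overlap those of Plbd2 on the other strand. The call of Tat was lost only without WT library 4 (edgeR adjusted p = 0.0502), and Got1 was called in 4 of the 12 fits that left out 1 library, with an adjusted p of up to 0.102.

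A list of reversible steps shared with glycolysis, the malate dehydrogenase genes Mdh1 and Mdh2, and the paralogues Pck2 and G6pc3 had 2 of 11 genes higher and 0 lower by the test (median 0.18). Mdh2, mitochondrial malate dehydrogenase, averaged 173 CPM in KO and 148 CPM in WT (log2 0.23 ± 0.05 SE), and Gapdh 64.0 CPM in KO and 50.6 CPM in WT (log2 0.34 ± 0.07 SE; edgeR adjusted p = 0.0435 and 0.0334). Gapdh has many processed pseudogenes, with which its reads may be shared, and its exons overlap those of Iffo1 on the other strand. Pgk1 (log2 0.23 ± 0.07 SE) did not pass. The calls held in 2 and 6 of the 12 fits that left out 1 library for Mdh2 and Gapdh. Of the genes of opposing glycolytic steps 0 of 9 were called (median 0.19). Pdk2 stood at -0.29 ± 0.11 and Pfkl at 0.19 ± 0.07 (log2, SE), without passing.

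On the hormonal side, 1 of 22 receptor and cAMP signalling genes was called. Insr, the insulin receptor gene, ran from 88.4 to 139.5 CPM in KO and from 130 to 163 CPM in WT, and fell by 0.40 ± 0.10 on the log2 scale (SE; edgeR adjusted p = 0.0417). Of 22 transcription factors and coregulators 1 rose and 1 fell (median 0.00). Foxo1 ran from 30.7 to 43.4 CPM in KO and from 39.1 to 61.8 CPM in WT, and fell by 0.48 ± 0.11 (log2, SE; edgeR adjusted p = 0.0394). Crem, a cAMP-inducible relative of CREB whose products include the repressor ICER, ran from 20.3 to 34.7 CPM in KO and from 13.8 to 21.4 CPM in WT, and rose by 0.74 ± 0.13 (log2, SE; edgeR adjusted p = 0.0176). Its exons overlap those of Gm6225 on the other strand, which averaged 1.06 CPM in KO and 0.972 CPM in WT. Insr and Foxo1 were called in 2 and 3 of the 12 fits that left out 1 library, and Crem in 11, all but that without WT library 4 (0.0502). Adcy6 (log2 -0.56 ± 0.15), Prkacb (-0.20 ± 0.06) and the CRTC2 relative Crtc3 (0.63 ± 0.18) did not pass (log2, SE; edgeR adjusted p from 0.0715 to 0.0789).

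Genes that respond to these regulators had values of both signs. Of 9 CREB-CRTC2 responsive genes other than the members, Tat and Crem rose and 5 of 9 had positive values (median 0.00). Of 6 FoxO1 responsive genes Insr fell; Igfbp1, which insulin represses, ran from 3.51 to 124 CPM in KO and from 4.14 to 30.7 CPM in WT, with KO libraries 2 and 4 highest and KO library 5 lowest (log2 1.52 ± 0.75 SE; edgeR adjusted p = 0.271). None of 7 CREBH responsive genes was called (median 0.28), with Apoa4 at 0.96 ± 0.41, Hamp at 0.80 ± 0.34 and Apoa5 at 0.28 ± 0.10 (log2, SE; edgeR adjusted p from 0.134 to 0.205). Apoa4 overlaps ENSMUSG00000111282 on the other strand, so its reads are uncertain. Of 8 glucocorticoid responsive genes Tat rose alone (median -0.01). Of 16 clock genes Cry1 rose (log2 0.96 ± 0.21 SE) and Hlf (-0.80 ± 0.16) and Tef (-0.93 ± 0.20) fell (edgeR adjusted p = 0.0360, 0.0266 and 0.0326), with a median of -0.60, and their summed level was 519 to 742 CPM in KO and 765 to 1146 CPM in WT. The other 13 clock genes did not pass, though some had larger log2 fold changes. Ciart (-2.18 ± 0.55), Dbp (-1.77 ± 0.45) and Per3 (-1.73 ± 0.45) were lower, and Npas2 (1.55 ± 0.50) and Arntl (1.39 ± 0.40) higher (log2, SE). Their adjusted p ran from 0.0586 to 0.107 with edgeR and from 0.00306 to 0.0265 with DESeq2. Of the 16 values 5 were positive and 11 negative, so the median and the sum mix both directions. Cry1, Hlf and Tef were called in 3, 8 and 5 of the 12 fits that left out 1 library (edgeR adjusted p up to 0.0887, 0.0669 and 0.0796). Part of the glucose-production programme is rhythmic in mouse liver, and the part of these clock gene values in those of G6pc and Tat was not tested.

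**Figure D5:**
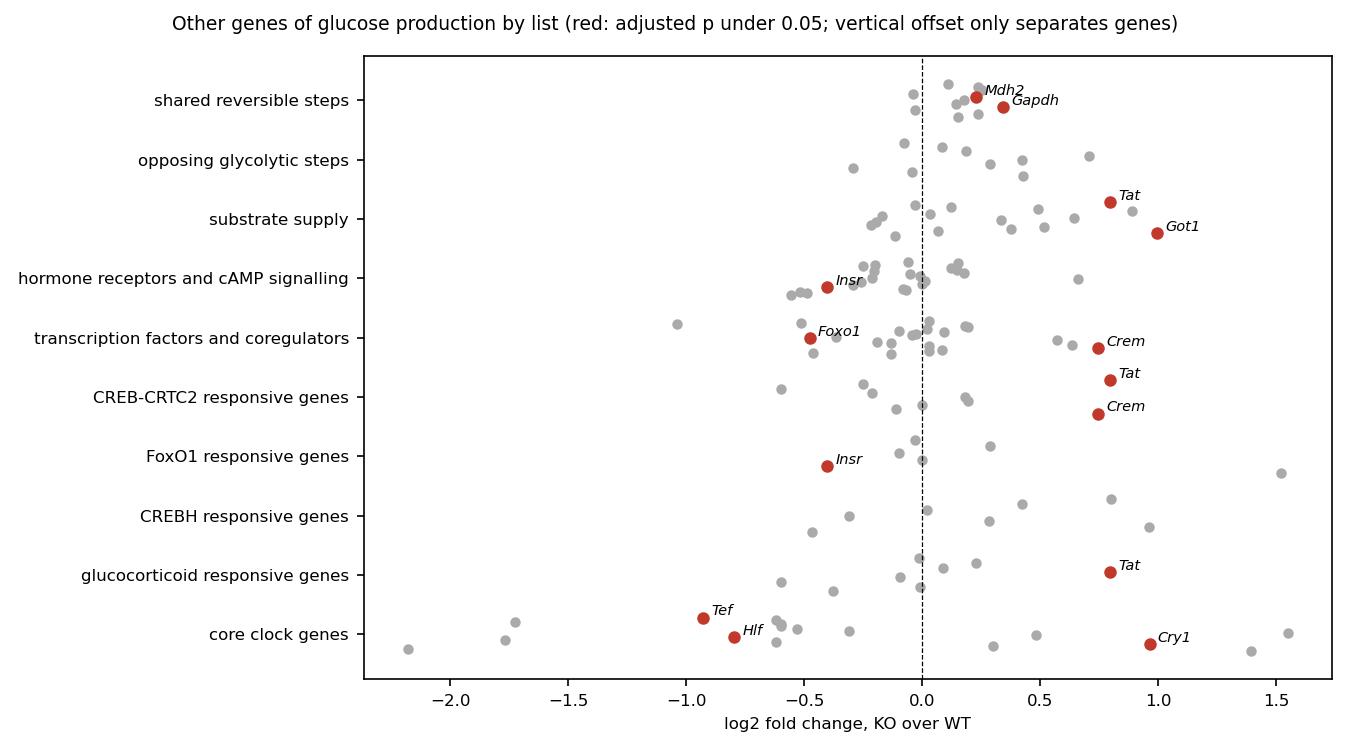
Log2 fold change of KO over WT for the other genes of glucose production, 1 point per gene in each of the 10 lists (a gene may be in several), with called genes in red and named. Red points lie on both sides of 0, with Tat, Got1, Gapdh, Mdh2, Crem and Cry1 higher and Insr, Foxo1, Hlf and Tef lower.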

How the data were processed

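The deposited table gives raw read counts, as whole numbers, for each gene in each library. It also gives the authors' log2 fold change and p-values of KO over WT, under DESeq2's column names, per the file headers. The submitters' processing notes name FastQC, Trimmomatic, HISAT2, SAMtools, featureCounts, DESeq2 and GRCm38; the sources used here do not give tool versions, annotation, strand setting or handling of shared reads, so reads of overlapping genes are uncertain. The first row of each Ensembl gene was kept (15140 of 15344 rows; the 204 repeats had the same counts). Totals of 30348123 to 40828767 counts per library limit low genes most; the lowest count of a described gene was 175, for Ppargc1a.

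Counts were tested with edgeR 4.0.16 (R 4.3.3), quasi-likelihood F test with robust estimation, TMM scaling and filterByExpr, which kept 15000 genes, two-sided, Benjamini-Hochberg threshold 0.05; the code was tested on simulated data. SE is the absolute log2 fold change over the root of F, and intervals (95%) use 10 degrees of freedom. Correlations used 100000 permutations, or all 720 orders for 6 libraries. Levels per kilobase use the exon union of GENCODE M21. Promoter sequences are RefSeq's (GRCm38.p6). Alternatives were DESeq2 1.42.0, limma-voom (limma 3.58.1), RLE or total-count scaling, other filters, a replicate block and each library left out. All 30 pairs of libraries within a genotype differed beyond sampling noise.

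The genes and lists were chosen with earlier results of these data known. Named genes are the 10 members, up to 3 genes of smallest p and any called gene per list, and the 3 genes nearest to Pck1, G6pc and Ppargc1a. Pck2, G6pc3, Sds, Igfbp1's library order and the clock genes Ciart, Dbp, Per3, Npas2 and Arntl were added after their values were seen. Some genes that this rule names are not reported here.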

Additional observations from a re-analysis of the deposited data

How the results depend on the processing

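The count of called genes (396) was 1214 with DESeq2, 257 on total counts, and 25 to 700 without each library in turn. The count of the 10 described genes called (0) was 1 with DESeq2 and 0 to 1 without each library, in each case through G6pc. No label pairs the libraries by number. Deviations of same-numbered libraries correlated from -0.204 to 0.362, and 3 KO and 2 WT libraries correlated best with their own number. These values do not settle whether the numbers pair the libraries. With the replicate number as a block 374 genes were called, and 1 described gene, G6pc (log2 fold change 0.68, edgeR adjusted p = 0.0227). Of 190 values of single genes under alternatives, 175 kept direction and side of the threshold, 3 passed it (all G6pc) and 12 changed sign, all close to 0: Slc37a4 stood at -0.013 on total counts and -0.0036 with at least 1 CPM in 6 libraries, and without each library in turn ran from -0.083 to 0.10, Pcx from -0.093 to 0.045 and Ppargc1a from -0.23 to 0.054. The causes were not tested. The 3 correlated pairs became 5 on total counts, and 0 without the 2 libraries farthest from the median of each pair's first-named gene. Within KO and within WT the count was 0 too, but the 720 orders of 6 libraries cannot let a single pair pass adjustment over 45 pairs. Those 0 counts therefore do not bear on the pooled pairs.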
